A study of Homo sapiens with 24 samples.

Results

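Counts of mature miRNAs were compared in OV90, a line of human epithelial ovarian cancer cells long kept in culture, between spheroid and adherent culture in cells that carried a negative control shRNA (shNeg). The libraries were chosen by their labels alone: 8 of the 24 small RNA libraries, 4 spheroid and 4 adherent. The other libraries came from cells with an shRNA against RELA (8) or RELB (8), the NF-κB subunits of the canonical and the non-canonical pathway. All cells carried a doxycycline-inducible shRNA and were given 1 µg/ml doxycycline for 72 h, the shNeg cells included. The labels give the genotype of the shNeg cells as Wildtype, and their titles mark them as Neg. Adherent cells grew in RPMI medium with 10% tetracycline-free fetal calf serum. Spheroids grew on ultra-low attachment plastic in DMEM-F12 with 1% KnockOut serum replacement, EGF at 20 ng/mL and FGF at 10 ng/mL. Attachment, medium, serum and growth factors therefore changed together, and their effects cannot be told apart. The labels do not say whether replicates were separate cultures, so p-values measure only the spread between these libraries.

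Spheroid culture is used in ovarian cancer work to enrich for tumor-initiating cells (TICs), the stem-like cells held to survive chemotherapy, and the comparison asks which miRNAs differ between that state and ordinary adherent growth. A miRNA is cut from a hairpin RNA whose arms can each give a mature strand, called 5p and 3p. Bases 2 to 8 of the strand, the seed, pair with target mRNAs and lead to their repression, so miRNAs that share a seed share many predicted targets.

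The sequences below are those on which the results turn, from RefSeq (GRCh38.p14), written 5′ to 3′ with the seed in capitals. A RefSeq mature sequence was matched for 795 of the 905 miRNAs tested. The first set rose steeply in spheroids, and is shown because most of its members are rich in G and C and hold runs of G, except miR-1290 and miR-1246.
miR-4516: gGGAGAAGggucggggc
miR-4488: aGGGGGCGggcuccggcg
miR-7704: cGGGGUCGgcggcgacgug
miR-760: cGGCUCUGggucugugggga
miR-1275: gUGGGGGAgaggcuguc
miR-423-5p: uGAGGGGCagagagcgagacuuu
miR-1290: uGGAUUUUuggaucaggga
miR-1246: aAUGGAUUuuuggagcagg

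The next set rose together and shares the seed AAAGCUG, and differs only toward the 3′ end.
miR-320b: aAAAGCUGgguugagagggcaa
miR-320c: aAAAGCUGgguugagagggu
miR-320d: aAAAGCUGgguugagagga

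The next set fell, in groups that share a seed: UCAAGUA in miR-26a-5p and miR-26b-5p, AAAGUGC in miR-17-5p, miR-20a-5p and miR-106a-5p, AGUGCAA in miR-130b-3p and miR-454-3p, and AGCAGCA in miR-15b-5p and miR-16-5p.
miR-26a-5p: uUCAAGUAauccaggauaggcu
miR-26b-5p: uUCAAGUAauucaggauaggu
miR-17-5p: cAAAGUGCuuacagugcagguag
miR-20a-5p: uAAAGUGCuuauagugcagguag
miR-106a-5p: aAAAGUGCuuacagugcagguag
miR-130b-3p: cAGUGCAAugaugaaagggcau
miR-454-3p: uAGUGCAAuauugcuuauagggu
miR-15b-5p: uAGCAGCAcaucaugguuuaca
miR-16-5p: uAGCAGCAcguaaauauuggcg

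The let-7 members share the seed GAGGUAG and moved apart, so let-7b-5p, the one of this seed called higher, and let-7f-5p, with its lowest fold change, are shown with let-7e-5p, the most abundant.
let-7b-5p: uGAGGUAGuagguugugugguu
let-7e-5p: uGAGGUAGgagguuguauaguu
let-7f-5p: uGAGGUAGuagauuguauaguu

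The last set holds both arms of hairpins whose arms moved in opposite directions.
miR-106b-5p: uAAAGUGCugacagugcagau
miR-106b-3p: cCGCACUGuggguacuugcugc
let-7d-5p: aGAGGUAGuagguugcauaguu
let-7d-3p: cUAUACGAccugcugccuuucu
miR-23a-5p: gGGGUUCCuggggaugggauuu
miR-23a-3p: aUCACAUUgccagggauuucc

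The deposited table gave an estimated count for 2656 mature miRNAs, of which 1069 had no count in the 8 shNeg libraries, and 905 passed the filter of at least 1 CPM, a count scaled to a common library total, in at least 4 of the 24 libraries. Library totals ran from 3797175 to 6624182 counts in adherent and from 959141 to 1580252 in spheroid culture. Spheroid replicate 1 stood apart: it had counts for 432 miRNAs, against 813 to 885 in the other spheroid libraries and 1043 to 1172 in the adherent ones. Its rank correlation across the miRNAs with the other spheroid libraries was 0.7605 to 0.7996, against 0.8667 to 0.886 among those. No replicates agreed within sampling noise (chi-square of 13.7 to 440.3 per degree of freedom). Detection fell from 1133.2 ± 60.5 to 746.25 ± 212 miRNAs per library (SD, n = 4; 2-sided exact permutation p = 0.02857, the smallest that 4 against 4 can give). At an equal depth of 959141 counts it was 734 to 792 in adherent libraries and 430, 813, 814 and 832 in spheroids, and no difference was detected (exact permutation p = 1). Without spheroid replicate 1 the spheroid mean at that depth was the higher one. It was 819.67 ± 10.7 against 761 ± 27.1 in adherent libraries (SD; exact permutation p = 0.05714). Results were therefore also computed without spheroid replicate 1. Levels below are CPM scaled by the TMM method, in which 3 counts, the limit that a count of 0 allows, were worth 0.497 to 0.800 CPM in adherent and 1.54 to 2.29 CPM in spheroid libraries. Error from sources other than counting is not in these limits.

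Growth as spheroids was accompanied by a change in a large share of the miRNAs. A miRNA was called where edgeR's quasi-likelihood test gave a false discovery rate (FDR) below 0.01 and the fold change was above 2. Of the 905 tested, 382 were called (42.2%), 193 higher (21.3%) and 189 lower (20.9%) in spheroids. Of the 337 that averaged 10 CPM or more here, 216 were called (64.1%), 89 higher (26.4%) and 127 lower (37.7%). The 4 spheroid libraries lay wholly above the 4 adherent ones for 153 miRNAs (16.9%) and wholly below for 277 (30.6%), together 430 (47.5%). Without spheroid replicate 1, 366 of 900 were called, 192 higher and 174 lower. The balance of directions depended on the scaling: 50.5% of calls were higher with TMM, 54.5% with median-ratio factors, 61.8% with library totals alone, which moved log2 fold changes up by a median of 0.43, and 37.9% by limma on log2(CPM + 1). In the shNeg groups alone 56% of 257 calls were higher, and at equal depth 65.8% of 196, 129 higher and 67 lower.

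**Figure D1:**
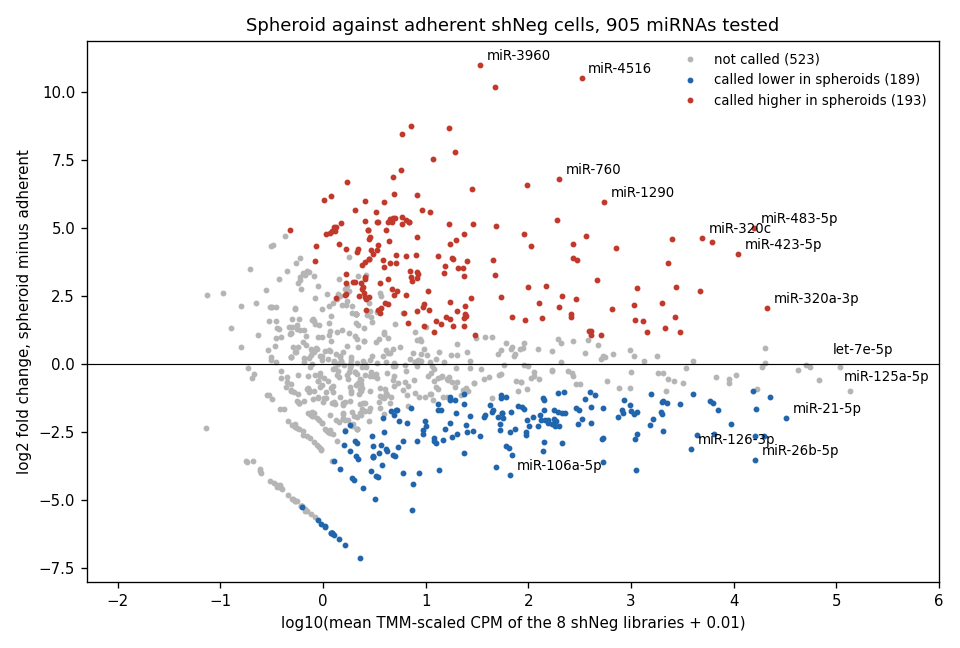
log2 fold change of each of the 905 miRNAs tested (spheroid minus adherent shNeg) against its mean level over the 8 libraries on a log10 axis, with called miRNAs in colour. The 193 called higher reach a log2 fold change of 10.98 (miR-3960), while the most abundant miRNAs, such as let-7e-5p and miR-125a-5p, lie near or a little below 0.

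Several of the steepest rises were in miRNAs with few or no counts in adherent cells. The 12 highest fold changes among called miRNAs with separate groups and a mean of at least 10 CPM were those of miR-3960, miR-4516, miR-4488, miR-7704, miR-6821-5p, miR-6799-5p, miR-760, miR-1224-5p, miR-139-3p, miR-1290, miR-6763-5p and miR-1275. miR-4516, from a hairpin at chr16:2133119-2133204 on the plus strand, was at 0.83, 0.267, 0.359 and 0.172 CPM in the 4 adherent libraries and at 1879, 391.7, 206 and 164 CPM in spheroid replicates 1 to 4. All spheroid libraries were far above all adherent ones, and replicate 1 was several times the others. Its log2 fold change was 10.50 ± 0.74 (SE, FDR = 7.48e-14), and 9.12 without replicate 1. miR-3960 was at 0 in every adherent library and at 183, 48.1, 22.6 and 14.7 CPM in spheroids, at least 441-fold higher against 3 counts over the adherent group, or at least 187-fold without replicate 1.

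For 4 of these miRNAs the adherent libraries held 1 to 3 counts between them. The ratio was 1856 for miR-4488 (95% counting interval 332 to 73443), 669 for miR-7704 (119 to 26555), 256 for miR-6821-5p (86.3 to 1249) and 228 for miR-6799-5p (61.8 to 1899). Without spheroid replicate 1 these ratios were 783, 342, 166.0 and 61.0. miR-7704 lies in an exon of HOXD1 (chr2:176188843-176188901, plus strand) and miR-6799 in an intron of AP2A1 (chr19:49791866-49791934, plus strand).

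Better measured in adherent cells were miR-760, miR-1275 and miR-1290. miR-760 (chr1:93846832-93846911, plus strand) rose from 4.14, 2.40, 3.94 and 3.44 CPM to 949.7, 286, 185 and 164 CPM, a log2 fold change of 6.79 ± 0.49 (SE, FDR = 1.66e-13). miR-1275 (chr6:33999972-34000051, minus strand) rose from 9.47 ± 2.05 to 374 ± 329 CPM (SD, n = 4), with 857 CPM in replicate 1 and 155 to 311 in the others. In both, replicate 1 was the highest, and without it the log2 fold changes were 5.88 and 4.47. miR-1290 rose from 20.6, 12, 20.1 and 16 CPM to 1645, 830.0, 1039 and 789 CPM (log2 5.96 ± 0.28, SE, FDR = 1.7e-18), with replicate 1 again the highest and no overlap between cultures. miR-1224-5p, from an intron of VWA5B2, miR-139-3p, from an intron of PDE2A, and miR-6763-5p, from an intron of FBRSL1, had log2 fold changes of 6.56, 6.43 and 5.59, and of 5.48, 5.74 and 4.84 without replicate 1.

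Among called miRNAs with separate groups and a mean of at least 10 CPM, the 12 lowest fold changes lay between −4.09 and −3.01 on the log2 scale. They were those of miR-106a-5p, miR-32-3p, miR-130a-3p, miR-374b-5p, miR-454-3p, miR-26b-5p, miR-10b-3p, miR-335-3p, miR-15b-3p, miR-126-3p, miR-4521 and miR-551b-5p. miR-26b-5p, from an intron of CTDSP1 (chr2:218402646-218402722, plus strand) and a known repressor of EZH2, was the most abundant of them. It was at 31253, 30817, 29888 and 27124 CPM in adherent libraries and at 1024, 2661, 3492 and 3158 CPM in spheroids. Every spheroid library was far below every adherent one, with replicate 1 the lowest, and the log2 fold change was −3.53 ± 0.25 (SE, FDR = 6.79e-14).

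miR-126-3p, from an intron of EGFL7 (chr9:136670602-136670686, plus strand) and best known from endothelial cells, was at 7357, 6856, 7027 and 6263 CPM and then at 778, 696, 841 and 856 CPM (log2 −3.12 ± 0.23, SE, FDR = 1.76e-13). Here spheroid replicate 1 lay among the other spheroid libraries. miR-130a-3p fell from 2075, 2218, 2132 and 1963 CPM to 30.1, 134, 196 and 204 CPM (log2 −3.89 ± 0.34, SE, FDR = 1.13e-11). miR-106a-5p, from the X-linked paralog of the miR-17-92 cluster, fell from 130.0, 129, 127 and 121 CPM to 2.20, 5.35, 10.8 and 10.5 CPM (log2 −4.09 ± 0.33, SE, FDR = 2.45e-12). In both, replicate 1 was the lowest spheroid library. miR-32-3p, miR-374b-5p, miR-10b-3p, miR-335-3p, miR-4521 and miR-551b-5p had no count in replicate 1, and stayed called without it, with log2 fold changes of −3.53, −3.40, −2.96, −2.88, −2.68 and −2.61.

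**Figure D2:**
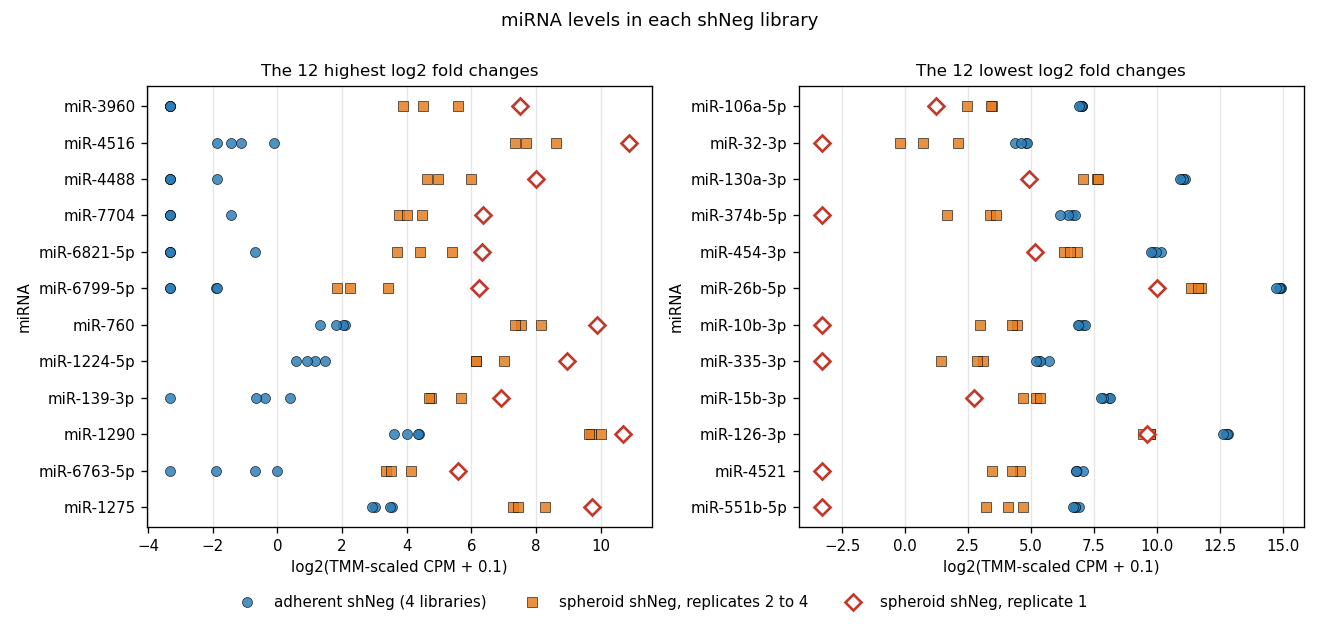
Level of the 12 miRNAs with the highest (left) and the 12 with the lowest (right) log2 fold changes in each shNeg library, as log2(TMM-scaled CPM + 0.1), where a count of 0 sits at the left end. Adherent and spheroid libraries do not overlap for any of the 24, and spheroid replicate 1 (open diamonds) is the highest spheroid library for all 12 on the left and the lowest for most on the right, miR-126-3p excepted.

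The direction of change followed base composition, which the choice of libraries did not use. The median share of G and C was 62.5% in the 167 miRNAs called higher, 45.45% in the 166 called lower and 54.55% in the 462 not called, all with a median length of 22 bases. Of 125 miRNAs with 65% or more, 70 were called higher and 1 lower, with a median log2 fold change of 2.25. Of 46 with less than 35%, none was called higher and 20 lower, with a median of −1.98. The classes between moved in order: medians of −1.67 for 35 to 45% (135 miRNAs), −0.74 for 45 to 55% (277) and 0.82 for 55 to 65% (212). Across the 795 miRNAs the rank correlation of G and C content with log2 fold change was 0.56, and 0.558 over those tested without spheroid replicate 1. This is a description across miRNAs of the same libraries, which are not independent replicates.

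Runs of G were also more frequent among the miRNAs called higher. The letters GGGG, which also raise G and C content, stood in 70 of the 167 called higher (41.9%), in 6 of the 166 called lower (3.61%) and in 42 of the 462 not called (9.09%), against 14.8% of all 795. The median log2 fold change was 3.08 for the 118 with GGGG and −0.59 for the 677 without. Without spheroid replicate 1 the shares were 41.0% of calls higher and 3.95% of calls lower.

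As a share of unscaled library counts, miRNAs with 55% or more G and C held 6.82%, 6.39%, 6.91% and 7.13% in adherent libraries. In spheroid libraries they held 14.5%, 15.4%, 13.8% and 14.0%, with no overlap (exact permutation p = 0.02857, 0.03851 after adjustment over the 31 shares tested). That smallest p was reached by 23 of the 31 shares, so it does not set any of them apart. Shares also divide the same total and are not independent. In the spheroids of shRELA and shRELB cells the share with 55% or more was 7.41% and 8.58%, against 6.91% and 7.26% in their adherent cells. Only miRNAs with a matched sequence enter these classes. They held a mean of 96.35% of counts in adherent and 90.34% in spheroid shNeg libraries, so more of the spheroid counts had no class. miRNAs with less than 45% fell from 43.6 ± 1.31% to 32.7 ± 1.64% of shNeg counts (SD, n = 4; the same p), but stood at 51.8% and 48.9% in shRELA and shRELB spheroids against 44.6% and 43.2% in their adherent cells. The shNeg spheroid libraries were also the shallowest, with 959141 to 1580252 counts against 2024133 to 2747599 in shRELA and 1861232 to 3580931 in shRELB spheroids, and the part of depth in this share was not tested.

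**Figure D3:**
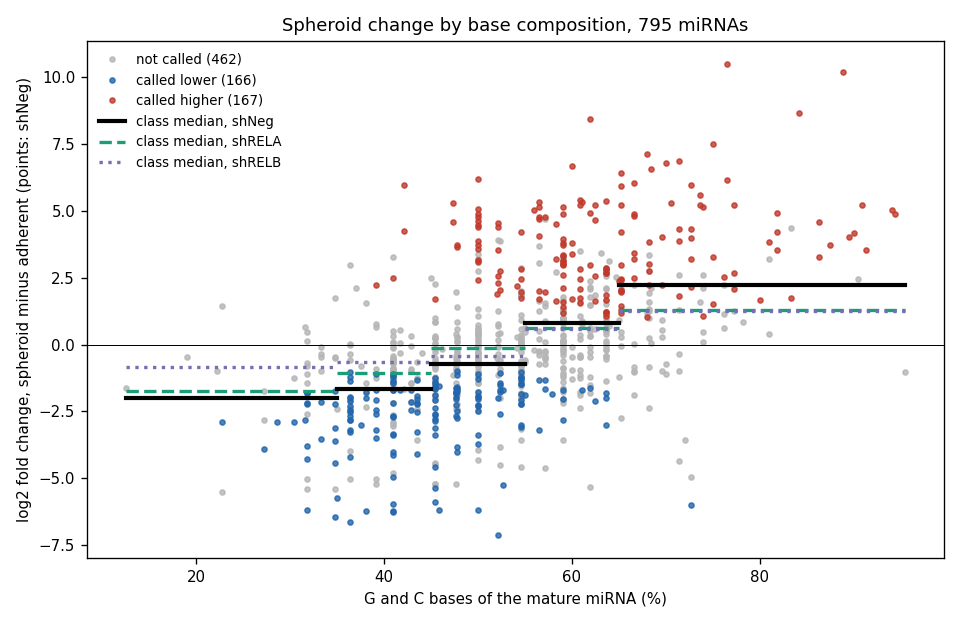
log2 fold change (spheroid minus adherent shNeg) of 795 miRNAs against the percentage of G and C in the mature strand, with bars for the median of each composition class in shNeg, shRELA and shRELB cells. The shNeg medians run from −1.98 below 35% to 2.25 at 65% or above, and those of shRELA and shRELB cells from −1.72 and −0.85 to 1.28 and 1.27.

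The 10 most abundant miRNAs held 61.98% to 63.58% of counts in adherent and 61.38% to 69.25% in spheroid libraries (exact permutation p = 1), with the highest share in spheroid replicate 1. miR-125a-5p, let-7e-5p and miR-99b-5p are cut from neighbouring hairpins of a cluster on chromosome 19. miR-125a-5p, the most abundant in adherent cells, was at 176630.0, 168330.0, 190535 and 192790.0 CPM and then at 137682, 68149, 79623 and 84774 CPM, with a log2 fold change of −0.98 ± 0.17 (SE, FDR = 1.16e-05), just short of the fold threshold. Without replicate 1 it was called at −1.23. let-7e-5p (−0.11 on the log2 scale), miR-99b-5p (−0.22), miR-93-5p (−0.10) and miR-92a-3p (−0.03) overlapped between cultures and were not called, and let-7a-5p (−0.59) and miR-181a-5p (0.58) were separate but below the fold threshold.

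Of the 10 most abundant miRNAs of adherent cells, 4 fell past the threshold: miR-21-5p, miR-26a-5p, miR-26b-5p and miR-146a-5p. miR-21-5p, an oncogenic miRNA, was at 55726, 51049.6, 51746 and 47480.5 CPM in adherent and at 5713, 12952, 15766 and 17236 CPM in spheroid libraries (log2 −2.0 ± 0.23, SE, FDR = 3.91e-09). miR-26a-5p fell from 33893 ± 1737 to 5388 ± 2616 CPM (SD, n = 4; log2 −2.65 ± 0.26, SE, FDR = 1.45e-10). The spheroid libraries were all lower, and replicate 1 was the lowest for both.

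Into the 10 most abundant of spheroids came miR-320a-3p, miR-483-5p and miR-423-5p. miR-423-5p, from an exon of NSRP1 (chr17:30117079-30117172, plus strand), rose from 1285, 899, 1346 and 1451 CPM to 19489, 27899.6, 18965 and 16367 CPM, a log2 fold change of 4.05 ± 0.21 (SE, FDR = 3.1e-17). Replicate 1 lay within the range of the other spheroid libraries, and the cultures did not overlap.

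Most of the miR-320 family rose. It is listed with miR-484 because the hairpins of both are known to be made without Drosha, the nuclease that frees most miRNA hairpins. Of the 7 members tested 5 were called higher and 1 lower, against 21.3% and 20.9% of all miRNAs, and the counts were the same in shRELA and in shRELB cells and without spheroid replicate 1. The median was 2.42, against −0.26 over all miRNAs tested. miR-320b was at 561, 436, 524 and 605 CPM in adherent and 11205, 13490.5, 12522 and 9736 CPM in spheroid libraries (log2 4.46 ± 0.21, SE, FDR = 2.22e-18). miR-320c and miR-320d, which share its seed, rose by 4.62 and 4.59 on the log2 scale, miR-320a-3p by 2.07 and miR-320e by 2.42. Counting may split reads between these near-identical members. miR-484, the other Drosha-independent miRNA, moved the other way, from 1308 ± 67.7 to 372 ± 158 CPM (log2 −1.81 ± 0.25, SE, FDR = 1.27e-07). The list held 0.980 ± 0.119% of counts in adherent and 7.70 ± 1.85% in spheroid libraries (SD, n = 4; exact permutation p = 0.02857, adjusted 0.03851).

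The family of miR-130, miR-301 and miR-454 had the lowest median of the lists, −2.74, with 7 of 10 members called lower and none higher. Over all miRNAs tested 20.9% were called lower and 21.3% higher. miR-130b-3p, which shares the seed of miR-454-3p, fell from 906 ± 38.6 to 132 ± 74.4 CPM (log2 −2.77 ± 0.30, SE, FDR = 1.58e-09). In the group of miR-15, miR-16 and miR-107, which represses cyclins and BCL2, 11 of 17 were called lower and none higher. miR-16-5p was at 29274, 26837, 28524 and 26987 CPM and then at 5684, 3949, 4223 and 4058 CPM (log2 −2.64 ± 0.20, SE, FDR = 3.27e-13). In this case replicate 1 was the highest of the spheroid libraries, still below every adherent one. miR-15b-5p (−1.45) and miR-103a-3p (−1.66) were also called lower. The group went from 6.02 ± 0.150% to 2.10 ± 0.455% of counts (SD, n = 4; exact permutation p = 0.02857, adjusted 0.03851).

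The miR-17-92 cluster and its paralogs, which MYC activates, held calls in both directions. Of 22 members 11 were called lower and 1 higher, against 20.9% and 21.3% of all tested, with a median of −0.87. Their share of unscaled library counts went the other way, from 12.3 ± 0.428% to 15.6 ± 2.13% (SD, n = 4; exact permutation p = 0.02857, adjusted 0.03851). miR-17-5p (−2.73), miR-20a-5p (−2.61) and miR-106b-5p (−2.44) fell, while miR-93-5p, which has the same seed and is far more abundant than any of them, did not pass the test (−0.10). In the miR-30 family 8 of 11 members were called lower and none higher, in the clusters of miR-23, miR-24 and miR-27 7 of 9 were lower and 1 higher, and in miR-221 and miR-222 3 of 4 were lower. miR-24-3p fell by 1.84 on the log2 scale. miR-221-3p, a repressor of the cell cycle inhibitor p27, was just past the fold threshold at −1.0 ± 0.19 (SE, FDR = 3.39e-05), and at −0.77 without spheroid replicate 1 was no longer called. With library totals alone, the calls lower and higher were 6 and 0 in the family of miR-130, miR-301 and miR-454, 8 and 0 in that of miR-15, 10 and 3 in miR-17-92, 8 and 0 in miR-30, 6 and 2 in those of miR-23 and 1 and 0 in miR-221 and miR-222.

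**Figure D4:**
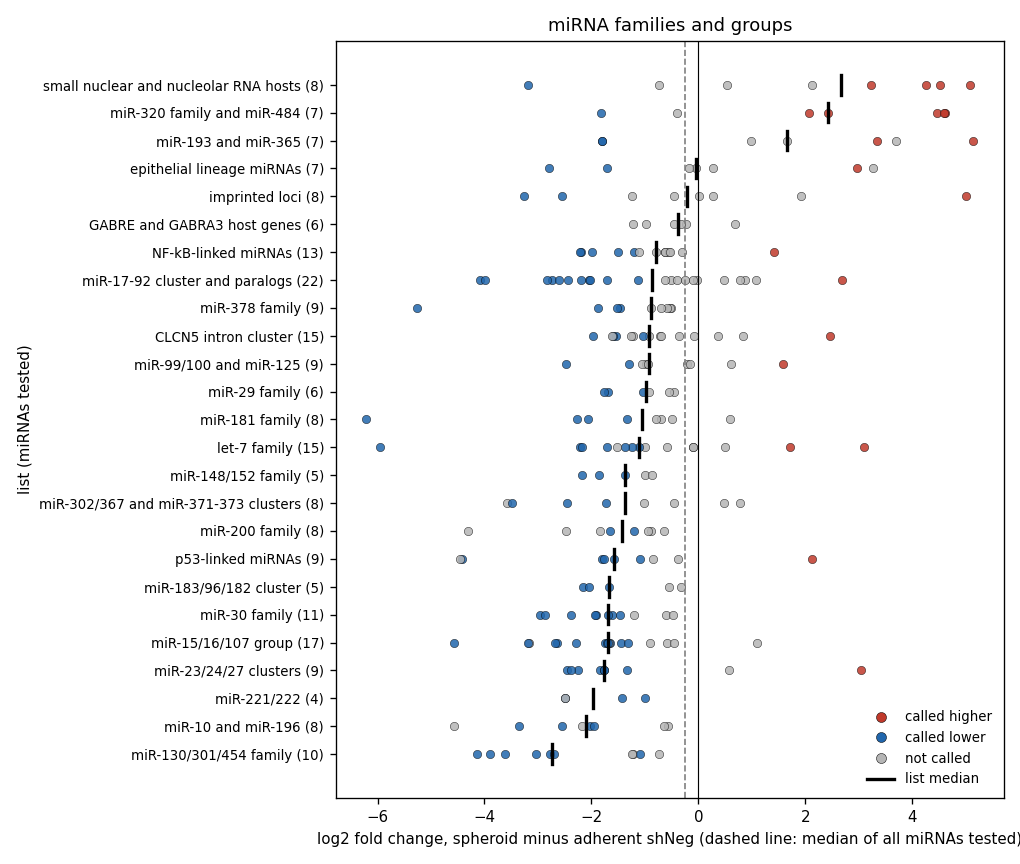
log2 fold change (spheroid minus adherent shNeg) of each tested member of the lists with at least 4 members, with called members in colour, list medians as black bars and the median of all miRNAs tested (−0.26) as a dashed line. The miR-320 list and the miRNAs of small nuclear and nucleolar RNA hosts have the highest medians (2.42 and 2.67, the latter 1.41 without spheroid replicate 1), and the family of miR-130, miR-301 and miR-454 the lowest (−2.74).

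The let-7 family, which represses LIN28, HMGA2 and RAS and is low in many stem-like cells, moved in both directions. Of 15 members tested, 7 were called lower and 2 higher, against 20.9% and 21.3% of all miRNAs, with a median of −1.11. With library totals alone the counts were 3 lower and 2 higher. let-7f-5p fell from 17166, 15661, 14894 and 14860.2 CPM to 4580.0, 3042, 3134 and 2662 CPM (log2 −2.22 ± 0.21, SE, FDR = 6.36e-11). let-7b-5p rose from 1245, 1156, 1328 and 1333 CPM to 6196, 3572, 3652 and 3149 CPM (log2 1.71 ± 0.18, SE, FDR = 6.67e-10). Neither overlapped between cultures, and replicate 1 was the highest spheroid library in both. let-7g-5p (−1.37) and let-7d-5p (−1.11) fell, the latter not called without replicate 1 (−0.86), and let-7e-5p, which holds the most let-7 counts, was not called. The family's share of counts was 22.58% to 23.07% in adherent and 22.05% to 25.16% in spheroid libraries (exact permutation p = 0.1429), against 26.0% in adherent and 40.6% in spheroid shRELA cells and 24.01% and 33.97% in shRELB cells.

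Calls were also counted by seed. Among the 11 seeds with at least 4 tested miRNAs, 8 had calls lower only, 1 had calls higher only (AAAGCUG, 4 of 4, miR-320b, miR-320c, miR-320d and miR-4429), 1 had both (GAGGUAG, let-7) and 1 had none. Over all miRNAs tested 20.9% were called lower and 21.3% higher. Of the 8, ACAUUCA and AUUGCAC held a single call each, so that their direction could not be mixed. Without spheroid replicate 1 neither held a call. AGCAGCA had 5 of 6 called lower and AAAGUGC 4 of 6. Of AGCAGCA, miR-195-5p was not called without that replicate. Members of one seed group are alike in sequence and may share reads, so they are not independent.

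Both arms of 214 hairpins were tested. For 51 hairpins both arms were called, 28 times both lower, 14 times both higher and 9 times in opposite directions. Over all miRNAs tested 21.3% were called higher and 20.9% lower. In the 8 of these 9 with both sequences, the arm with more G and C was the one that rose in all 8. These hairpins were picked by their calls in the same libraries, so this is part of the trend with base composition above and no separate evidence. miR-483 lies in an intron of IGF2. miR-483-5p rose from 1021, 678, 1019 and 1136 CPM to 71795, 23244, 16079.9 and 12333 CPM (log2 5.0 ± 0.38, SE, FDR = 3.29e-13), while miR-483-3p fell from 10729, 8879, 11560.5 and 12497 CPM to 2594, 1542, 1557 and 1724 CPM (log2 −2.56 ± 0.20, SE, FDR = 4.48e-13). The more abundant arm was 3p in every adherent library and 5p in every spheroid library. Replicate 1 was the highest spheroid library for both arms, and without it the log2 fold changes were 4.16 and −2.76.

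miR-106b lies in an intron of MCM7 (chr7:100093993-100094074, minus strand). miR-106b-3p rose from 1325, 926, 1359 and 1484 CPM to 8549, 8578, 8006 and 7777 CPM (log2 2.69 ± 0.21, SE, FDR = 7.39e-13), and miR-106b-5p fell from 80.4, 139, 75.3 and 60.5 CPM to 17.6, 26.0, 13.8 and 8.42 CPM (log2 −2.44 ± 0.35, SE, FDR = 4.62e-07). let-7d-3p rose by 3.10 on the log2 scale against −1.11 for let-7d-5p, and miR-23a-5p by 3.04 against −2.24 for miR-23a-3p. Of the 9 hairpins, 7 still had arms called in opposite directions without spheroid replicate 1. let-7d and miR-877 were the exceptions.

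Other lists moved as follows. Of 8 miRNAs named from small nuclear or nucleolar RNA hosts, 4 were called higher and 1 lower, against 21.3% and 20.9% of all tested. Their median log2 fold change of 2.67 was 1.41 without spheroid replicate 1. miR-1246, which matches part of the U2 small nuclear RNA, was at 77.8, 56.5, 77.5 and 72.4 CPM in adherent and 1991, 1132, 1295 and 1001 CPM in spheroid libraries (log2 4.25 ± 0.22, SE, FDR = 1.57e-17), and miR-664b-5p rose by 5.08, or 4.29 without replicate 1. Fragments of the host RNA and the miRNA cannot be told apart in counts. miR-210-3p, the miRNA of hypoxia, was at 181, 106, 135 and 119 CPM and then at 185, 255, 309 and 280.0 CPM. The groups were separate, but its log2 fold change of 0.93 ± 0.22 (SE, FDR = 0.000588) missed the fold threshold, and passed it at 1.06 without spheroid replicate 1.

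Of the miR-200 family, which keeps ZEB1 and ZEB2 low in epithelial cells, 2 of 8 were called lower and none higher, against 20.9% and 21.3% of all tested, and with median-ratio factors or library totals 1 was lower. miR-200c-3p, its abundant member, was at 3129, 3136, 3151 and 3263 CPM and at 1641, 2387, 2168 and 1940.4 CPM, separate but not called (log2 −0.64 ± 0.20, SE, FDR = 0.00668). miR-141-3p fell (log2 −1.65 ± 0.27, SE, FDR = 3.66e-06). miR-200b-3p was called at −1.20. It had 0.733 CPM in replicate 1, and without that library was not called (−0.83). Of the pluripotency clusters miR-302 to miR-367 and miR-371-373, 3 of 8 were called lower and none higher, against the same shares of all tested. Without replicate 1 only 1 was called. The called members were under 10 CPM on average. With library totals alone 1 was called higher and 1 lower, and the clusters' share of counts went up, from 0.00582 ± 0.000249% to 0.0104 ± 0.00260% (SD, n = 4; exact permutation p = 0.02857, adjusted 0.03851).

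Of 13 NF-κB-linked miRNAs 5 were called lower and 1 higher, and of the 9 with a mean of at least 10 CPM also 5 and 1, where 37.7% and 26.4% of all miRNAs at that level were. miR-146a-5p and miR-146b-5p are induced by NF-κB and repress its upstream adaptors TRAF6 and IRAK1. miR-146b-5p fell from 567, 471, 488 and 492 CPM to 107.1, 96.2, 128 and 106 CPM (log2 −2.20 ± 0.22, SE, FDR = 2.26e-10), and miR-146a-5p from 31865 ± 2157 to 13832 ± 2299 CPM (log2 −1.20 ± 0.17, SE, FDR = 3.31e-07). Neither group overlapped. Of 9 p53-linked miRNAs 5 were called lower and 1 higher, against 20.9% and 21.3% of all tested. miR-34a-5p, the p53 target best known as a tumor suppressor, was at 2313, 2016, 2246 and 1952 CPM and then at 526, 861, 1349 and 1279 CPM (log2 −1.09 ± 0.20, SE, FDR = 2.76e-05), and was no longer called without replicate 1 (−0.87) or with library totals alone (−0.63).

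The 16 miRNAs drawn from the study were all tested here. They were the candidates it measured by PCR, those it named as changed in 1 direction across its knockdown comparisons, and miR-30e-5p, its PCR control. let-7b-5p, which was not among those candidates, was called higher. miR-30a-5p (−1.61), miR-30a-3p (−1.92), miR-30e-5p (−1.69) and miR-34a-5p were called lower. Over all miRNAs tested 21.3% were called higher and 20.9% lower. Apart from miR-30e-5p the list was chosen on these samples and is no independent evidence of a direction. miR-452-5p was at 35.1, 25.6, 28.9 and 31.3 CPM in adherent and at 39.6, 8.40, 6.16 and 8.42 CPM in spheroid libraries. Replicate 1 lay above every adherent library and the other 3 below all of them. With it the change was not called (log2 −0.97 ± 0.42, SE, FDR = 0.0453), and without it miR-452-5p was called lower at −2.0. miR-335-5p was at 52.9, 74.1, 69.9 and 54.8 CPM and at 0, 33.6, 27.2 and 45.6 CPM and was not called (log2 −1.24 ± 0.47, SE, FDR = 0.0231), with no count in replicate 1. The other arm, miR-335-3p, was called lower, as above.

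Over all 905 miRNAs tested, 21.3% were called higher and 20.9% lower, and at a mean of 10 CPM or more 26.4% and 37.7%. Several of the small lists that follow lay near these shares. The remaining lists, each given as members called higher and lower of those tested, were the group of miR-99, miR-100 and miR-125 (1 and 2 of 9), miR-29 (0 and 3 of 6), miR-181 (0 and 4 of 8), miR-183, miR-96 and miR-182 (0 and 3 of 5), miR-10 and miR-196 (0 and 4 of 8), miR-33 (0 and 1 of 3), miR-148 and miR-152 (0 and 3 of 5), miR-378 (0 and 4 of 9), the CLCN5 intron cluster (1 and 4 of 15), miRNAs of GABRE and GABRA3 (0 and 0 of 6), imprinted loci (1 and 2 of 8), miR-193 and miR-365 (2 and 2 of 7), epithelial lineage miRNAs (1 and 2 of 7) and hypoxia (1 and 0 of 2). The share of counts of miR-181 went up against its calls, from 1.92 ± 0.0781% to 3.35 ± 0.173% (SD, n = 4; exact permutation p = 0.02857, adjusted 0.03851), and with library totals alone its calls were 1 and 3. With those totals miR-378 had 0 and 1. Calls in 1 direction moved by more than 1.5 times without spheroid replicate 1 for miR-302 and its relatives, as above, and for miR-193 and miR-365 (4 and 2), imprinted loci (2 and 2), the group of miR-15 (1 and 10), the miRNAs of GABRE and GABRA3 (0 and 1) and the neuron markers (0 and 1).

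The sums of leukocyte and muscle markers were low in both cultures, and those of the other cell types lay above them. Between cultures, the fibroblast, neuron and endothelial sums were lower in spheroids and the leukocyte sum was higher, each without overlap. In unscaled CPM, the leukocyte list summed to 8.95 to 12.7 in adherent and 20.5 to 27.2 in spheroid libraries, and the muscle list to 0.604 to 1.73 and 0 to 4.59. The fibroblast list summed to 388 to 491 and 220 to 312, the neuron list to 734 to 788 and 320 to 409, and the endothelial list to 5918 to 7116 and 894.6 to 1255. Of their members miR-150-3p, miR-214-5p, miR-1-5p, miR-133a-5p, miR-124-5p, miR-128-2-5p and miR-219a-2-3p had no count. None of 3 leukocyte and none of 2 muscle miRNAs tested was called. Of 9 fibroblast miRNAs 2 were called higher and 4 lower, of 4 neuron miRNAs 1 and 1, and of 2 endothelial ones none and 2, both from miR-126. Over all miRNAs tested 21.3% were called higher and 20.9% lower.

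The red cell and serum list summed to 36.3 to 40.6 in adherent and 566 to 790 in spheroid libraries, in the same unit. Of its 3 tested members only miR-486-5p was called, higher, from 37.0, 27.2, 37.7 and 36.1 to 707, 412, 467 and 448 CPM (log2 3.88 ± 0.25, SE, FDR = 6.69e-15). miR-451a, the defining miRNA of red cells, was at 3.98, 6.13, 5.38 and 2.41 CPM and then at 0, 2.29, 0 and 2.11 CPM. miR-122-5p, the liver miRNA, was abundant in both cultures, at 20863, 18537, 20120.5 and 19707 CPM and 23896, 16380.0, 20955 and 19643 CPM, and was not called (log2 0.03 ± 0.16, SE, FDR = 0.883). The part of serum or of other RNA in these values was not tested.

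Cells with RELA or RELB knocked down were grown in the same pair of cultures, with adherent libraries of their own. There 295 of 905 miRNAs were called between spheroid and adherent cells with shRELA (32.6%) and 226 with shRELB (25.0%). Of the 193 higher in shNeg spheroids, 111 (57.5%) were also called higher with shRELA, against 16.8% of all miRNAs tested, and 105 (54.4%) with shRELB, against 13.6%. Of the 189 lower in shNeg spheroids, 104 (55%) were called lower with shRELA, against 15.8%, and 80 (42.3%) with shRELB, against 11.4%. In all 3 cell populations 147 miRNAs were called in one direction, 84 higher and 63 lower. miR-320b, miR-320c and miR-320d rose by 4.15 to 4.65 on the log2 scale in the knockdown cells, and miR-1290 by 6.88 and 6.45.

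The size of the change was tested between cell populations as an interaction. The difference was called for 69 miRNAs with shRELA (7.62%) and 77 with shRELB (8.51%), and in 56 and 68 of them the change was smaller in the knockdown cells. In shRELA against shNeg, 39 differences were higher (4.31%) and 30 lower (3.31%), and 23 and 43 with median-ratio factors. In shRELB against shNeg they were 42 (4.64%) and 35 (3.87%), and 36 and 50 with those factors. Of the 382 miRNAs called in shNeg spheroids, 88 had a called difference in at least 1 knockdown and 294 in neither. The part of depth in these differences was not tested. The counts were 77 and 87 without spheroid replicate 1.

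Among miRNAs that rose in shNeg spheroids, miR-1275 rose by 5.29 on the log2 scale in shNeg, 2.11 in shRELA and 2.33 in shRELB cells, and miR-760 by 6.79, 3.27 and 4.21, all with called differences. The differences of miR-139-3p (−3.64) and miR-1224-5p (−2.93) with shRELB were also called. Without spheroid replicate 1 all stayed called and were smaller: −2.60 and −1.67 for miR-760 and −2.36 and −2.13 for miR-1275 with shRELA and shRELB, and −2.93 for miR-139-3p and −1.84 for miR-1224-5p with shRELB. miR-1306-5p was at 11.1, 5.87, 10.8 and 13.6 CPM and at 102, 24.4, 11.8 and 14.0 CPM in shNeg cells (1.85) and fell with shRELA (−1.63), but its groups overlapped, and without spheroid replicate 1 its shNeg change was not called (0.66). Its differences were −3.49 with shRELA and −2.54 with shRELB, and −2.29 and −1.32 without that library, the latter not called.

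Among miRNAs that fell in shNeg spheroids, miR-146a-5p and miR-146b-5p were not called in either knockdown. miR-146b-5p had log2 fold changes of −0.17 and −0.09 there, with called differences of 2.04 and 2.11 from shNeg. miR-26b-5p fell in all, by 3.53 in shNeg, 1.73 in shRELA and 1.19 in shRELB cells. miR-99a-5p fell in shNeg (−2.47) from a level of 48.8 ± 5.06 CPM, but was at 1.01 ± 0.183 CPM in adherent shRELA cells (SD, n = 4). miR-29b-1-5p was at 256, 315, 280.4 and 239 CPM and at 11.7, 80.9, 105 and 138 CPM in shNeg, and its change differed by 2.21 with shRELA. miR-32-3p differed by 2.64 with shRELB.

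miR-302d-3p and miR-302b-3p, of the pluripotency cluster, were low in shNeg cells. miR-302d-3p was at 2.98, 5.60, 3.77 and 3.95 CPM in adherent and 0, 0, 0.513 and 0.702 CPM in spheroid libraries, a ratio of 11.9 (95% counting interval 3.18 to 99.5) on 83 and 2 counts over the groups, and at 20.3 ± 2.20 and 29.5 ± 14.3 CPM in shRELB cells (SD, n = 4). Its difference was 4.02 with shRELB and that of miR-302b-3p 2.64.

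**Figure D5:**
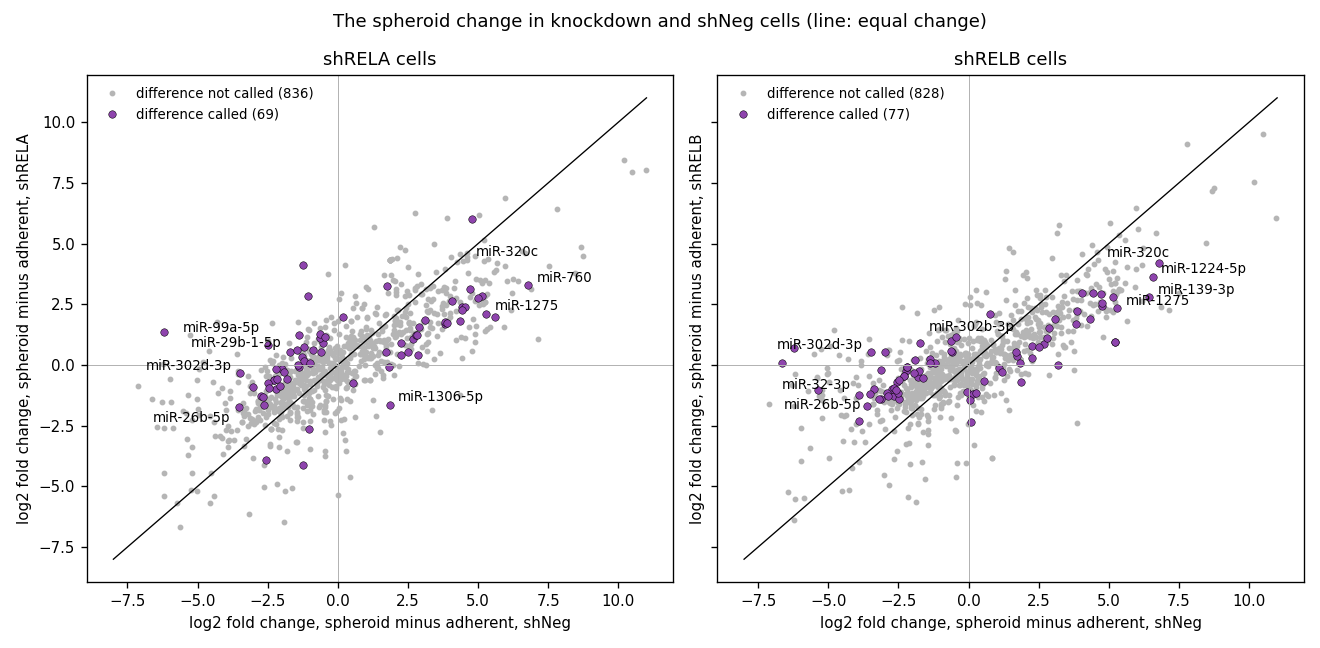
log2 fold change between spheroid and adherent cells in shRELA (left) and shRELB (right) cells against that in shNeg cells for the 905 miRNAs tested, with the line of equal change and the 69 and 77 called differences in purple. miR-320c lies near the line, while miR-760, miR-1275 and miR-26b-5p lie nearer to 0 change in the knockdown cells.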

How the data were processed

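The 24 small RNA libraries came from OV90 cells. The authors trimmed reads with Cutadapt, quantified mature miRNAs with miRDeep2 against miRBase and GRCh38, and deposited estimated counts, not normalized. Fractional values (3.045% of those above 0, in 84 miRNAs) were rounded. Reverse transcription primers carried unique molecular indexes, but whether reads were collapsed by them is not given in the sources used here. All columns were used (0 left out).

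A miRNA entered the test where 4 or more libraries held 1 CPM or more of it. The test ran in R 4.3.3 with edgeR 4.0.16 (TMM factors, quasi-likelihood test, 1 fit over 24 libraries in 6 groups), called at Benjamini-Hochberg FDR below 0.01 and a fold above 2. The SE of a log2 fold change was its size divided by the square root of F. On data simulated for this comparison over 903 miRNAs, the test recovered 45 of 99 changes of log2 1.5 and 82 of 99 of log2 3, with 1 false call. Simulated libraries came from the same mean profile, and none was set apart as spheroid replicate 1 was. The false calls in these data may therefore differ. Shares were compared by a 2-sided exact permutation test. The log2 values of limma 3.58.1 were taken on log2(CPM + 1), and DESeq2 1.42.0 was the other count test.

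Named miRNAs were the 12 highest and 12 lowest called fold changes with separate groups and a mean of at least 10 CPM. Also named were the 10 most abundant of each culture, list members, the miRNAs drawn from the study and the 6 leading differences per knockdown. miR-451a was named after its values were seen. Members and lists were chosen with earlier results of these data known. Sequences and hairpin positions came from RefSeq and the GRCh38.p14 annotation. Alternatives were other scalings, filters, tests and sample sets, a replicate block, equal depth and leaving out each library. Results for lists, composition and differences without spheroid replicate 1, and differences by DESeq2 and limma, were added after seeing the data. Intervals cover counting error only.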

Additional observations from a re-analysis of the deposited data

Results flagged for a closer look

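Spheroid replicate 1 held most of the single values that lay far from the rest of their group, measured against the range of that group. Of 164 groups of 4 libraries looked at, 19 had such a value, 13 of them in spheroid replicate 1, where it was the highest for 11 miRNAs and the lowest for 2. Chance gives such a value in about 1 of 20 groups, but the count of flags cannot be judged against that rate. The groups are those of the miRNAs described, some of them picked for fold changes computed with spheroid replicate 1. The miRNAs also share libraries. In CPM, replicate 1 was the highest for miR-4516 (1880), miR-4488 (257), miR-7704 (82.9), miR-6799-5p (74.8), miR-760 (950), miR-1224-5p (494), let-7b-5p (6200), miR-16-5p (5680), miR-664b-5p (211), miR-452-5p (39.6) and miR-1306-5p (102), and the lowest for let-7d-5p (1160) and miR-24-3p (339). Spheroid replicate 2 was the highest for miR-23a-5p (23.7). Among adherent libraries, replicate 4 was the highest for miR-4488 (0.172), miR-6821-5p (0.516) and miR-200c-3p (3260), and replicate 2 was the highest for miR-7704 (0.267) and the lowest for miR-486-5p (27.2). For miR-4488, miR-6821-5p and miR-7704 the other adherent libraries were at 0. A few counts fixed those flags, and the rate given for chance does not apply to them. The next adherent value of miR-200c-3p was 3150, so its distance was small. Counts were found for 432 miRNAs in spheroid replicate 1 and 1043 in adherent replicate 2, both far from their group. At equal depth adherent replicate 2 was at 743, within the adherent range of 734 to 792, and spheroid replicate 1 was still apart at 430. The 10 most abundant miRNAs held 69.25% of counts in spheroid replicate 1.

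The spheroid change differed between cell populations, by the interaction test of edgeR's fit, for 29 miRNAs described here with shRELA and 30 with shRELB. Without spheroid replicate 1, 26 and 28 of these differences were still called. Those lost were miR-221-3p, miR-302d-3p and miR-6763-5p with shRELA, and let-7d-3p and miR-1306-5p with shRELB. In log2 units, the change with shRELA minus that with shNeg was negative for miR-760 (−3.52), miR-6763-5p (−3.61), miR-1275 (−3.18), miR-483-5p (−2.26), miR-423-5p (−1.40), let-7d-3p (−1.26), miR-106b-3p (−1.62), miR-335-5p (−2.87), miR-483-3p (−1.37), miR-1306-5p (−3.49) and miR-486-5p (−2.16). It was positive for miR-26b-5p (1.80), miR-551b-5p (2.09), let-7a-5p (1.14), miR-26a-5p (1.33), miR-146a-5p (1.35), let-7f-5p (1.22), let-7g-5p (1.29), miR-17-5p (1.45), miR-16-5p (1.01), miR-30a-3p (1.62), miR-221-3p (1.07), miR-222-3p (1.43), miR-200b-3p (1.95), miR-200c-3p (1.91), miR-29b-1-5p (2.21), miR-302d-3p (3.15), miR-99a-5p (3.27) and miR-146b-5p (2.04). With shRELB it was negative for miR-760 (−2.59), miR-1224-5p (−2.93), miR-139-3p (−3.64), miR-1275 (−2.96), miR-423-5p (−1.08), let-7b-5p (−1.32), let-7d-3p (−1.19), miR-106b-3p (−1.81), miR-1306-5p (−2.54) and miR-486-5p (−1.66). It was positive there for miR-32-3p (2.64), miR-130a-3p (1.57), miR-454-3p (1.90), miR-26b-5p (2.34), miR-10b-3p (2.36), miR-15b-3p (1.79), miR-126-3p (1.72), let-7a-5p (1.14), miR-26a-5p (1.69), miR-146a-5p (1.28), let-7f-5p (1.98), let-7g-5p (1.61), miR-17-5p (1.72), miR-16-5p (1.35), miR-30a-5p (1.06), miR-30a-3p (2.11), miR-200c-3p (1.21), miR-302d-3p (4.02), miR-302b-3p (2.64) and miR-146b-5p (2.11).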

How the results depend on the processing

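The 382 calls numbered 215 of 349 with a minimum mean of 10 CPM, where fewer miRNAs were tested, 257 of 671 in the shNeg groups alone, 196 of 759 (129 higher, 67 lower) in those groups at equal depth, and 352 to 407 with 1 library left out. Differences ran from 51 to 81 (shRELA) and 61 to 100 (shRELB) with 1 library left out. The difference in miRNAs detected was −38.75 at equal depth with spheroid replicate 1 included. Without it the means at that depth were 819.67 in spheroid and 761 in adherent libraries. With 1 library left out, the share of the 10 most abundant miRNAs differed by −1.086 to 1.538 percentage points, reversed without spheroid replicate 1, and that of let-7 by 0.7933 to 1.83, past the threshold without spheroid replicate 4. The cause was not tested.

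Of 82 miRNAs described, 69 were called, and 57 of these stayed called in every alternative fit that tested them. Equal depth was not run for single miRNAs. With a minimum mean of 10 CPM 78 of the 82 were tested, and 75 in the shNeg groups alone without spheroid replicate 1. Of 1232 recomputed values of called miRNAs 1176 kept the call, 56 lost it and 0 reversed. Abundant miRNAs near 0 reversed. With median-ratio factors, library totals, a mean of 10 CPM, DESeq2, the shNeg groups alone and these without replicate 1, let-7e-5p was at 0.01696, 0.3219, 0.3411, 0.01695, 0.1505 and 0.1919, miR-93-5p at 0.02275, 0.34, 0.3439, 0.02276, 0.1664 and 0.2799, and miR-92a-3p at 0.09255, 0.4093, 0.4128, 0.09255, 0.2381 and 0.3683. miR-99b-5p was at 0.205, 0.2322, 0.03377 and 0.02539 with totals, a mean of 10 CPM and both shNeg fits. With 1 library left out, miR-92a-3p ran from −0.2831 to 0.009528 and miR-122-5p from −0.2192 to 0.04594, and miR-122-5p was at −0.2054 with no filter.

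Same-numbered libraries did not deviate together (r across miRNAs 0.07772, 0.2513, −0.2687 and −0.3981 for numbers 1 to 4), so the numbers were not taken to pair them. With the replicate block 358 were called, and 56 and 72 differences. Values under 2.29 CPM, worth 3 counts in the shallowest spheroid library, are limited by depth.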

Other observations

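miRNAs with catalogue numbers of 1000 or more were called higher more often than those below 1000, but not in steady order of number. Of 481 tested with a number below 1000, 12.3% were called higher and 34.9% lower, with a median log2 fold change of −1.0. Of 158 numbered from 5000 to under 10000, 32.9% were called higher and 1.90% lower, with a median of 1.48. In the classes between, 38% of 71 numbered from 1000 to under 3000 were called higher, and 26.5% of 181 from 3000 to under 5000. Their medians were 0.92 and 0.44. Of 14 numbered 10000 and above, 50% were called higher. Over all miRNAs tested 21.3% were called higher and 20.9% lower. Numbers below 1000 had a median level of 16.4 CPM in adherent cells and a median of 47.83% G and C. Those from 5000 to under 10000 had 0.748 CPM and 60.87%. Number, level and base composition differed together between these classes, and their separate parts were not tested. The classes were not recomputed without spheroid replicate 1.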
